A study of Homo sapiens with 16 samples.

Results

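The DNA damage and replication checkpoint kinases and the CDC25 phosphatases they act on were followed as a set of 10 genes, ATM, ATR, TOPBP1, CLSPN, CHEK1, CHEK2, WEE1, CDC25A, CDC25B and CDC25C, chosen by gene symbol from the 58735 genes of the deposited tables. All 10 were found. In PANC-1 cells, 6 of the 10 transcripts were higher with gemcitabine and none passed the test as lower. Of all genes tested there, 20.7% were higher and 24% lower. In BxPC3 cells, 7 of the 9 that could be tested were higher and WEE1 was lower, against 37.3% higher and 36.1% lower of all genes. The fall of WEE1 was small and did not pass under another scaling of the values.

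When a replication fork stalls, stretches of single-stranded DNA recruit the kinase ATR, which TOPBP1 activates, and claspin (CLSPN) brings the effector kinase CHK1 (CHEK1) to it. Breaks of both strands act mainly through the kinase ATM and its effector CHK2 (CHEK2). Both branches meet at the cyclin-dependent kinases (CDKs): WEE1 adds an inhibitory phosphate to them, the CDC25 phosphatases take it off, and CHK1 restrains the CDC25 proteins. Gemcitabine, a deoxycytidine analogue used against pancreatic cancer, stalls forks and lowers deoxynucleotide pools, and WEE1 and CHK1 inhibitors have been studied beside it for that reason. These proteins are governed largely by phosphorylation and degradation, which RNA levels do not show.

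The 16 libraries were made from poly-A RNA of established human pancreatic ductal adenocarcinoma lines: PANC-1 with gemcitabine, PANC-1 control, BxPC3 with gemcitabine and BxPC3 control, with 4 libraries each. Neither a dose nor a duration of treatment is given in the labels, and no vehicle is named for the controls. No label says that replicates were separate cultures, so the p-values set differences against a spread between libraries that may be technical only. Gene coordinates are those of GRCh38. Levels are FPKM (fragments per length of gene and size of library), and reads were recovered from them. The library size used was near, but not equal to, the reads in listed genes.

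The libraries held 22152034 to 37777222 reads in listed genes. SMAD4, which BxPC3 cells are known to have lost, had no read in any BxPC3 library, and in PANC-1 it had 3.03 to 3.94 FPKM with gemcitabine against 3.64 to 4.04 FPKM in controls, in keeping with the line labels. The summed level of 5 epithelial markers was 550 to 756 FPKM with gemcitabine and 337 to 369 FPKM in controls in PANC-1, and 1981 to 2307 FPKM with gemcitabine and 2389 to 2801 FPKM in controls in BxPC3, while 3 leukocyte markers summed to at most 0.421 FPKM in any library. The epithelial cadherin CDH1 stayed below 1 FPKM in every PANC-1 library. The 4 fibroblast markers summed to at most 12.3 FPKM, nearly all of it COL1A1, and the 3 endothelial markers to 5.60 to 6.29 FPKM with gemcitabine against 1.38 to 1.61 FPKM in BxPC3 controls, with CDH5 the most abundant of them with gemcitabine. The part of these shifts in the results was not tested. PANC-1 gemcitabine replicate 1 stood apart: relative to the other 3 libraries of its group, a median of 0.452 separated it upward in the quartile richest in GC, and -0.423 downward in the poorest (log2 scale). For the 10 genes, calls that turn on this library are given with and without it.

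Promoter sequences of RefSeq (GRCh38.p14) were read for 9 of the 10 genes. WEE1 had no entry. The 9 genes had 18 windows, each from 250 bases before to 50 bases after a transcription start. Motifs of cell cycle promoters were searched on both strands: the E2F site (TTTCCCGC, TTTCGCGC, TTTGCCGC or TTTGGCGC), the CHR, or cell cycle genes homology region (TTTGAA or TTCGAA, the second of which reads the same on both strands), and the CCAAT box bound by NF-Y. No match of one motif shared bases with a match of another. CDC25A and CLSPN are shown because they had the largest folds with gemcitabine in BxPC3, and CHEK1 because its change differed between the lines. Capitals mark the motif letters in these stretches, which run from 150 bases before to 5 bases after the start and hold no exon of GENCODE 29 for these genes.
CDC25A, chr3:48188413-48188567, minus strand: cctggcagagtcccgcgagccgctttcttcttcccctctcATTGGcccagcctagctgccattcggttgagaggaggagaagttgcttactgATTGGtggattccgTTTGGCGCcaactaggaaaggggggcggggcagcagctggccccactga
CLSPN, chr1:35769974-35770128, minus strand: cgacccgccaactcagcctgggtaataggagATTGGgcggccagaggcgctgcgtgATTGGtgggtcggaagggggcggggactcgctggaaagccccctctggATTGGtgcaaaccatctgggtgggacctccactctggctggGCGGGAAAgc
CHEK1, chr11:125626074-125626228, plus strand: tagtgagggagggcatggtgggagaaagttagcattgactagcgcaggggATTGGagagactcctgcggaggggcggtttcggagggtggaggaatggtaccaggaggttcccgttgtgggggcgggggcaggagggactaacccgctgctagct

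In CDC25A the E2F letters begin 44 bases before the start, and CCAAT boxes, read as ATTGG on this strand, begin 110 and 58 bases before it. In CLSPN the E2F letters begin 5 bases before the start and run past it, with CCAAT boxes 119, 94 and 46 bases before it. The CHEK1 stretch has a CCAAT box 100 bases before the start and none of the E2F or CHR letters in its window. For the other genes with an E2F or CHR match, 30 bases around the site are shown, with that site in capitals.
TOPBP1, chr3:133661930-133661959, minus strand: ccgcgcggttgGCGCGAAAgtcggttcccg
CDC25B, chr20:3796260-3796289, plus strand: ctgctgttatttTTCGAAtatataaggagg
CDC25C, chr5:138331817-138331846, minus strand: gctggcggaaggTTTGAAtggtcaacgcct
ATM, chr11:108223035-108223064, plus strand: agtcacgcagggTTTGAAccggaagcggga

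The E2F letters of TOPBP1 begin 7 bases before its start. The CHR letters begin 38 bases before a start of CDC25B, 30 bases before a start of CDC25C and 20 bases before a start of ATM. E2F letters were in 3 of the 18 windows of these genes, against 3.3% of 35116 RefSeq windows of the same length. CHR letters were in 4 of the 18 windows, against 16.4%, and CCAAT boxes in 12 of the 18, against 34.6%. Windows of 1 gene overlap or lie close together, so they are not independent, and a match is a description of letters and not of a bound site.

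Across all genes tested, gemcitabine changed a large share of the transcriptome, which is the background for every count here. In PANC-1, 20.7% of 12508 genes passed the test as higher and 24% as lower, by limma with an adjusted p under 0.05. In BxPC3 these shares were 37.3% and 36.1% of 12215 genes. Against that background, 6 of the 10 checkpoint genes were higher in PANC-1 (TOPBP1, CLSPN, WEE1, CDC25A, CDC25B and CDC25C), none was lower and 4 did not pass. The median log2 change of the 10 was 0.48, and that of all genes tested was -0.02. In BxPC3, 7 of 9 were higher (ATR, TOPBP1, CLSPN, CHEK1, CDC25A, CDC25B and CDC25C), with a median of 0.54 over the 9 and 0.00 over all genes. ATM fell under the filter on low values there, which asked for 1 FPKM in 4 libraries of the line. Folds are ratios of mean FPKM. A log2 change was taken after adding 1 to FPKM, so it is smaller than the change in FPKM itself, most for genes of low level. In BxPC3 it was 1.67 for CDC25A and 0.31 for ATR, against 1.98 and 0.41 with a pseudocount of 0.1.

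**Figure D1:**
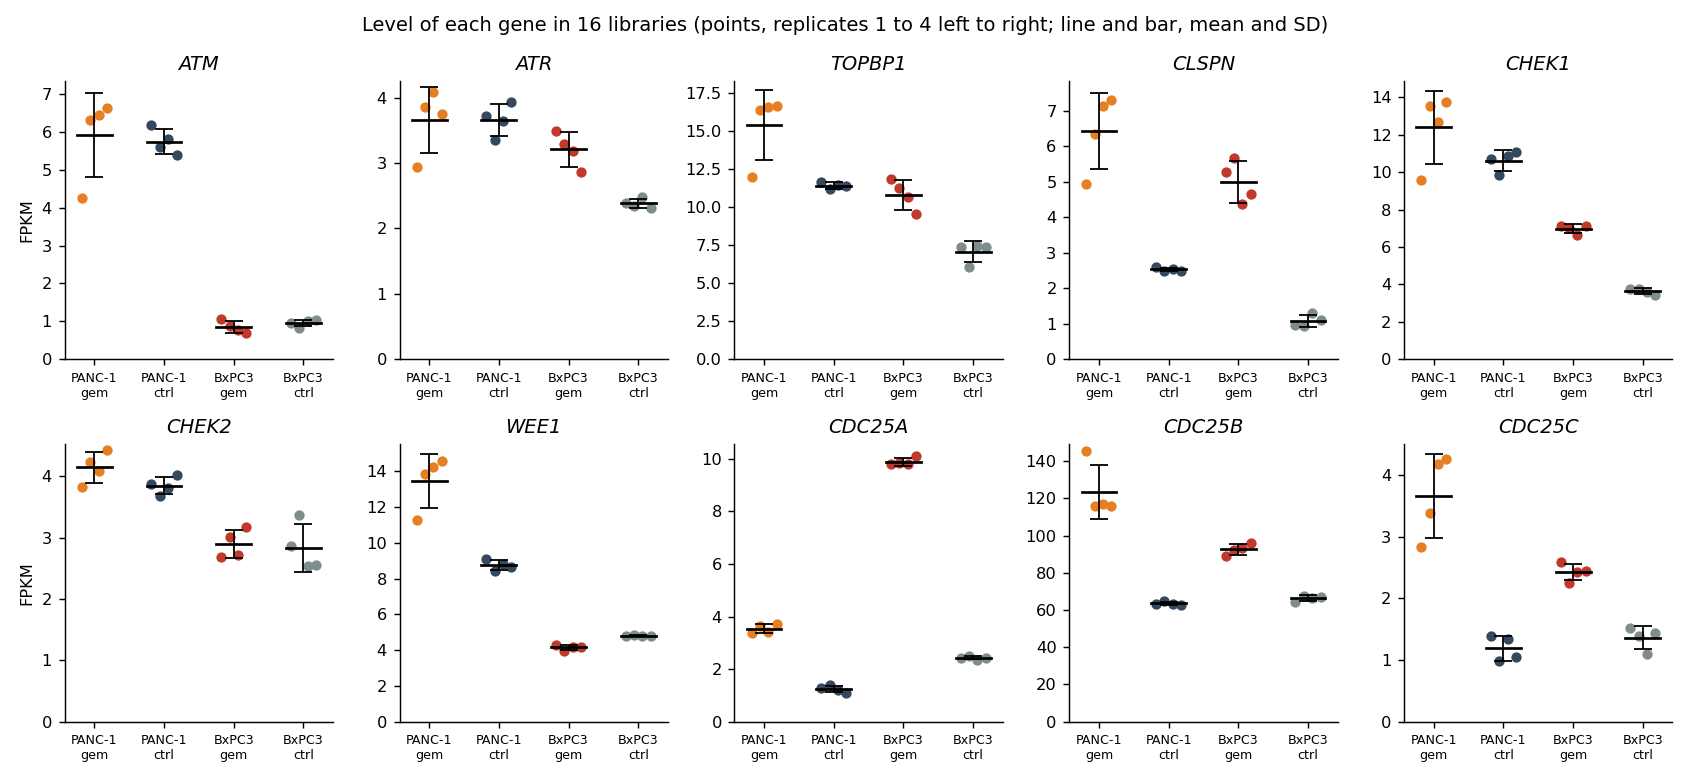
FPKM of each of the 10 genes (vertical axes, from 0) in the 4 libraries of PANC-1 gemcitabine, PANC-1 control, BxPC3 gemcitabine and BxPC3 control, left to right, with the mean as a line and the SD as a bar. CDC25A, CDC25B, CDC25C, CLSPN and TOPBP1 have gemcitabine points wholly above control points in both lines, WEE1 lies above control in PANC-1 and below it in BxPC3, and the leftmost PANC-1 gemcitabine point is the odd one in several panels.

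Of the apical kinases, ATR was higher in BxPC3 and ATM passed a test in neither line. ATM (chr11:108222484-108369102, plus strand), the kinase that answers double-strand breaks, had 4.26, 6.31, 6.46 and 6.64 FPKM with gemcitabine, against 6.18, 5.61, 5.80 and 5.39 FPKM in PANC-1 controls. Replicate 1 with gemcitabine lay below every control and the other 3 lay above every control, so the groups overlapped. The log2 change was 0.02 ± 0.12 (SE, adjusted p = 0.902), and 0.15 (adjusted p = 0.0159) without that library. In BxPC3 ATM was close to the 1 FPKM of the filter, with 1.06, 0.870, 0.761 and 0.688 FPKM with gemcitabine against 0.963, 0.825, 1.002 and 1.02 FPKM in controls. These groups also overlapped, and an exact 2-sided permutation test gave p = 0.286, where the smallest p that 4 against 4 libraries allow is 0.0286. ATM rested on 556 to 915 reads per library in BxPC3, so its level there was low but well counted.

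ATR (chr3:142449235-142578826, minus strand), the kinase of stalled forks, had 2.94, 3.87, 4.09 and 3.75 FPKM with gemcitabine, against 3.73, 3.35, 3.64 and 3.93 FPKM in PANC-1 controls. Both groups averaged 3.66 FPKM and overlapped, with a log2 change of -0.01 ± 0.09 (95% interval -0.20 to 0.19, adjusted p = 0.969). In BxPC3 ATR had 3.50, 3.30, 3.19 and 2.86 FPKM with gemcitabine, against 2.39, 2.35, 2.48 and 2.31 FPKM in controls. Every library with gemcitabine was above every control. Its mean was 1.35-fold higher, a log2 change of 0.31 ± 0.05 (adjusted p = 0.000337). Among the 7 rises in BxPC3, that of ATR had the smallest fold.

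TOPBP1 and CLSPN, which encode an activator of ATR and the mediator between ATR and CHK1, were higher in both lines. TOPBP1 (chr3:133598175-133662380, minus strand), the scaffold that activates ATR, had 12.0, 16.4, 16.6 and 16.7 FPKM with gemcitabine, against 11.7, 11.2, 11.4 and 11.4 FPKM in PANC-1 controls. All libraries with gemcitabine were above all controls, though replicate 1 only just. The fold was 1.35, and the log2 change was 0.39 ± 0.10 (adjusted p = 0.0127), or 0.50 (adjusted p = 1.88e-07) without replicate 1. In BxPC3 TOPBP1 had 11.8, 11.2, 10.7 and 9.54 FPKM with gemcitabine, against 7.38, 6.04, 7.46 and 7.35 FPKM in controls, again without overlap. The fold was 1.53 and the log2 change 0.55 ± 0.08 (adjusted p = 8.88e-05).

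CLSPN (chr1:35720218-35769967, minus strand) encodes claspin, the mediator that presents CHK1 to ATR. It had 4.94, 6.34, 7.13 and 7.32 FPKM with gemcitabine, against 2.58, 2.49, 2.55 and 2.48 FPKM in PANC-1 controls. The controls lay within a narrow band and all 4 libraries with gemcitabine were far above it, with the lowest being replicate 1. The fold was 2.55 and the log2 change 1.06 ± 0.10 (adjusted p = 5.05e-05). In BxPC3 CLSPN had 5.27, 5.67, 4.37 and 4.65 FPKM with gemcitabine, against 0.958, 0.922, 1.29 and 1.11 FPKM in controls. With gemcitabine CLSPN stood in the middle of the set, while in controls it was near its low end. Its fold of 4.67 was the largest of the set in either line, with a log2 change of 1.53 ± 0.08 (adjusted p = 8.02e-08). Its depth was 145 to 227 reads per library in BxPC3 controls.

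Of the effector kinases, CHEK1 was higher in BxPC3 and CHEK2 passed the test in neither line. CHEK1 (chr11:125625136-125676255, plus strand), the effector of the ATR branch, had 9.57, 13.5, 12.7 and 13.8 FPKM with gemcitabine, against 10.7, 9.83, 10.9 and 11.1 FPKM in PANC-1 controls. Replicate 1 was below every control and the other 3 were above every control. The log2 change of 0.19 ± 0.11 did not pass the test (adjusted p = 0.176), and without replicate 1 it did, at 0.30 (adjusted p = 0.000157). With each library's trend over GC content removed, the change was 0.16 (adjusted p = 0.00908). In BxPC3 CHEK1 had 7.12, 7.02, 6.65 and 7.12 FPKM with gemcitabine, against 3.77, 3.74, 3.58 and 3.44 FPKM in controls. The groups were far apart, with a fold of 1.92 and a log2 change of 0.79 ± 0.04 (adjusted p = 7.32e-08). CHEK1 shares 80 exon bases, 1.22% of its exon length, with STT3A on the same strand, a subunit of oligosaccharyltransferase that averaged 34.3 FPKM with gemcitabine and 28.2 FPKM in controls in BxPC3.

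CHEK2 (chr22:28687743-28742422, minus strand), the effector of the ATM branch, had 3.83, 4.23, 4.09 and 4.43 FPKM with gemcitabine, against 3.87, 3.69, 3.81 and 4.03 FPKM in PANC-1 controls. In BxPC3 it had 2.69, 3.01, 2.72 and 3.17 FPKM with gemcitabine, against 2.86, 3.37, 2.55 and 2.56 FPKM in controls. The groups overlapped in both lines. The log2 change was 0.08 ± 0.06 in PANC-1 (95% interval -0.05 to 0.22, adjusted p = 0.269) and 0.03 ± 0.07 in BxPC3 (-0.14 to 0.19, adjusted p = 0.758). Without PANC-1 gemcitabine replicate 1 the PANC-1 change was 0.11 (adjusted p = 0.0388). CHEK2 has several pseudogene copies, which were listed at or near 0, and 6.7% of its exon length also lies in exons of HSCB on the opposite strand. How reads of such copies and overlaps were assigned is not given in the sources used here.

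WEE1 (chr11:9573681-9593457, plus strand), the kinase that holds CDKs inactive, was the member whose direction differed between the lines. It had 11.3, 13.8, 14.2 and 14.6 FPKM with gemcitabine, against 9.10, 8.40, 8.83 and 8.68 FPKM in PANC-1 controls. All libraries with gemcitabine were above all controls. The fold was 1.54 and the log2 change 0.56 ± 0.08 (adjusted p = 0.000574). In BxPC3 it had 4.31, 3.96, 4.18 and 4.19 FPKM with gemcitabine, against 4.77, 4.87, 4.80 and 4.79 FPKM in controls. Here all libraries with gemcitabine were below all controls, by a small margin. The mean with gemcitabine was 0.865 times that of controls, a log2 change of -0.17 ± 0.04 (adjusted p = 0.00184). That small fall did not pass with FPKM rescaled to TPM, transcripts scaled to a common sum, (-0.12, adjusted p = 0.0774), a scaling that moved the median of all BxPC3 genes to 0.09.

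The 3 CDC25 phosphatases, which remove the inhibitory phosphate that WEE1 adds, were higher with gemcitabine in both lines. CDC25A (chr3:48157146-48188402, minus strand), which acts from the start of S phase onward and is the form that CHK1 marks for degradation, had 3.37, 3.63, 3.42 and 3.72 FPKM with gemcitabine, against 1.29, 1.39, 1.21 and 1.10 FPKM in PANC-1 controls. The groups were far apart, with a fold of 2.83 and a log2 change of 1.01 ± 0.06 (adjusted p = 2.60e-06). In BxPC3 CDC25A had 9.81, 9.85, 9.79 and 10.1 FPKM with gemcitabine, against 2.42, 2.50, 2.36 and 2.43 FPKM in controls. Replicates were almost identical within each group. The fold was 4.08 and the log2 change 1.67 ± 0.03 (adjusted p = 2.19e-10), which placed CDC25A at position 49 of 12215 genes by p.

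CDC25B (chr20:3786772-3806121, plus strand), known for starting the activation of CDK1 at the centrosome before mitosis, was by far the most abundant of the 10 transcripts. It had 145, 116, 117 and 116 FPKM with gemcitabine, against 63.5, 64.9, 63.4 and 62.8 FPKM in PANC-1 controls. Replicate 1 was the highest here, unlike in the other genes, and all 4 were far above the controls. The fold was 1.94 and the log2 change 0.94 ± 0.08 (adjusted p = 2.31e-05). In BxPC3 it had 89.0, 92.2, 93.3 and 96.0 FPKM with gemcitabine, against 64.3, 67.8, 66.2 and 67.1 FPKM in controls, without overlap. The fold was 1.40 and the log2 change 0.48 ± 0.04 (adjusted p = 1.48e-06).

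CDC25C (chr5:138285265-138338355, minus strand), the phosphatase that active CDK1 stimulates at mitotic entry and that 14-3-3 proteins hold in the cytoplasm, was among the lowest of the set in control cells. It had 2.84, 3.38, 4.18 and 4.25 FPKM with gemcitabine, against 1.39, 0.983, 1.34 and 1.04 FPKM in PANC-1 controls. The groups did not overlap, and the fold of 3.08 was the largest of the set in PANC-1. The log2 change was 1.08 ± 0.11 (adjusted p = 8.64e-05). In BxPC3 it had 2.58, 2.25, 2.43 and 2.45 FPKM with gemcitabine, against 1.52, 1.39, 1.09 and 1.44 FPKM in controls. The fold was 1.78 and the log2 change 0.54 ± 0.06 (adjusted p = 2.94e-05). Controls had 82 to 118 reads per library in PANC-1 and 119 to 180 in BxPC3, and 8.78% of the exon length of CDC25C lies in exons of FAM53C on the opposite strand. FAM53C averaged 15.4 FPKM with gemcitabine and 13.8 FPKM in controls in PANC-1, and 10.4 FPKM with gemcitabine and 7.87 FPKM in controls in BxPC3. Use of strand in counting is not given in the sources used here, and without it reads of these neighbours cannot be told apart.

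Counted by overlap alone, 6 of the 10 genes had PANC-1 groups that did not overlap, where 45.8% of all genes tested had none. In BxPC3, 8 of the 9 tested genes had groups that did not overlap, against 67.5% of all genes tested. In bulk RNA, a change in the number of cells of a stage and a change in RNA per cell cannot be told apart. Markers of cycle stage moved in the same libraries: PCNA, the replication clamp, averaged 99.8 FPKM with gemcitabine and 76.6 FPKM in controls in PANC-1, and 262 FPKM with gemcitabine and 181 FPKM in controls in BxPC3. Cyclin B1 (CCNB1), which accumulates toward mitosis, averaged 62.6 FPKM with gemcitabine and 21.1 FPKM in controls in PANC-1, and 57.3 FPKM with gemcitabine and 19.0 FPKM in controls in BxPC3. The summed level of the 4 stage markers, which also hold CCNE2 and CDC20, was 222 to 234 FPKM with gemcitabine against 116 to 123 FPKM in PANC-1 controls, and 426 to 476 FPKM with gemcitabine against 220 to 244 FPKM in BxPC3 controls. Their part in the rises of the checkpoint genes was not tested.

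The balance within the set shifted, as described by ratios of FPKM in each library, which were not tested. CDC25A made up 2.22% to 2.999% of the summed FPKM of the 3 CDC25 genes with gemcitabine and 1.70% to 2.07% in PANC-1 controls. In BxPC3 its share was 9.28% to 9.68% with gemcitabine and 3.39% to 3.55% in controls. CDC25B held most of the sum throughout, at 93.6% to 95.9% with gemcitabine against 96.0% to 96.7% in PANC-1 controls. In BxPC3 CDC25B held 87.8% to 88.4% with gemcitabine against 94.2% to 95.04% in controls. The CDC25C share overlapped between groups in both lines. It was 1.88% to 3.43% with gemcitabine against 1.46% to 2.10% in PANC-1 controls, an overlap from gemcitabine replicate 1 alone. In BxPC3 the CDC25C share was 2.16% to 2.55% with gemcitabine against 1.57% to 2.23% in controls. WEE1 expressed as a percentage of the CDC25 sum was 7.44% to 11.8% with gemcitabine and 12.5% to 13.8% in PANC-1 controls, so that ratio was lower with gemcitabine although WEE1 itself was higher. In BxPC3 it was 3.80% to 4.25% with gemcitabine and 6.75% to 6.99% in controls. The ratio of CDC25A to WEE1 was 0.240 to 0.299 with gemcitabine against 0.127 to 0.165 in PANC-1 controls. In BxPC3 it was 2.28 to 2.49 with gemcitabine against 0.492 to 0.514 in controls. The ratio of CHEK1 to CHEK2 was 2.50 to 3.20 with gemcitabine against 2.67 to 2.85 in PANC-1 controls, ranges that overlap. That overlap came from gemcitabine replicate 1 alone, at 2.50, while the others were at 3.10 to 3.20, above every control. In BxPC3 it was 2.24 to 2.65 with gemcitabine against 1.11 to 1.40 in controls, ranges that do not.

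**Figure D2:**
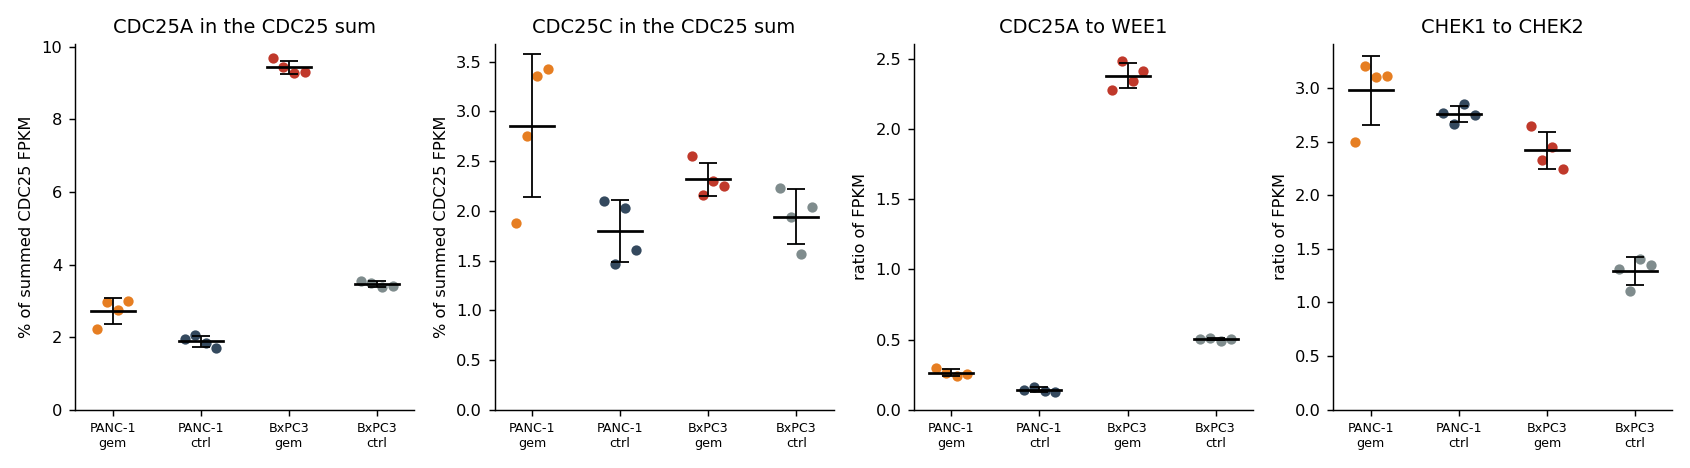
From left to right, the share of CDC25A and of CDC25C in the summed CDC25 FPKM (percent), and the ratios of CDC25A to WEE1 and of CHEK1 to CHEK2, in each library (points), with the mean as a line and the SD as a bar, and gemcitabine left of control in each line. The CDC25A share and its ratio to WEE1 are higher with gemcitabine in every library of both lines, most in BxPC3, where the ratio is at least 2.28 with gemcitabine and at most 0.514 in controls. The CDC25C share overlaps between gemcitabine and control in both lines.

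Whether gemcitabine changed the genes unequally in the 2 lines was asked of the difference itself, the log2 change in PANC-1 minus that in BxPC3, in a limma fit over all 16 libraries. Of the 14134 genes in that fit, 25.2% passed as higher in PANC-1 and 26.6% as lower. Among the 10 genes, 3 differences were positive, 4 were negative and 3 did not pass. The positive ones were WEE1 (0.74 ± 0.09, adjusted p = 3.77e-06), CDC25C (0.54 ± 0.13, adjusted p = 0.00295) and CDC25B (0.46 ± 0.09, adjusted p = 0.000405). The negative ones were CDC25A (-0.66 ± 0.06, adjusted p = 3.53e-07), CHEK1 (-0.59 ± 0.12, adjusted p = 0.00053), CLSPN (-0.47 ± 0.13, adjusted p = 0.00835) and ATR (-0.32 ± 0.10, adjusted p = 0.015). The order of the negative differences depended on the pseudocount: that of CLSPN was -0.83 with a pseudocount of 0.1 and -0.88 by limma-voom on reads, against -0.55 and -0.52 for CDC25A, with directions and calls unchanged for both. CDC25B and CDC25C thus rose more in PANC-1, and CDC25A rose more in BxPC3. TOPBP1 had a difference of -0.16 with a 95% interval of -0.44 to 0.12, CHEK2 of 0.06 with -0.14 to 0.26, and ATM of 0.11 with -0.19 to 0.40. Without PANC-1 gemcitabine replicate 1 the ATM difference passed, at 0.23 (adjusted p = 0.0268), so 4 differences were then positive and 4 negative.

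**Figure D3:**
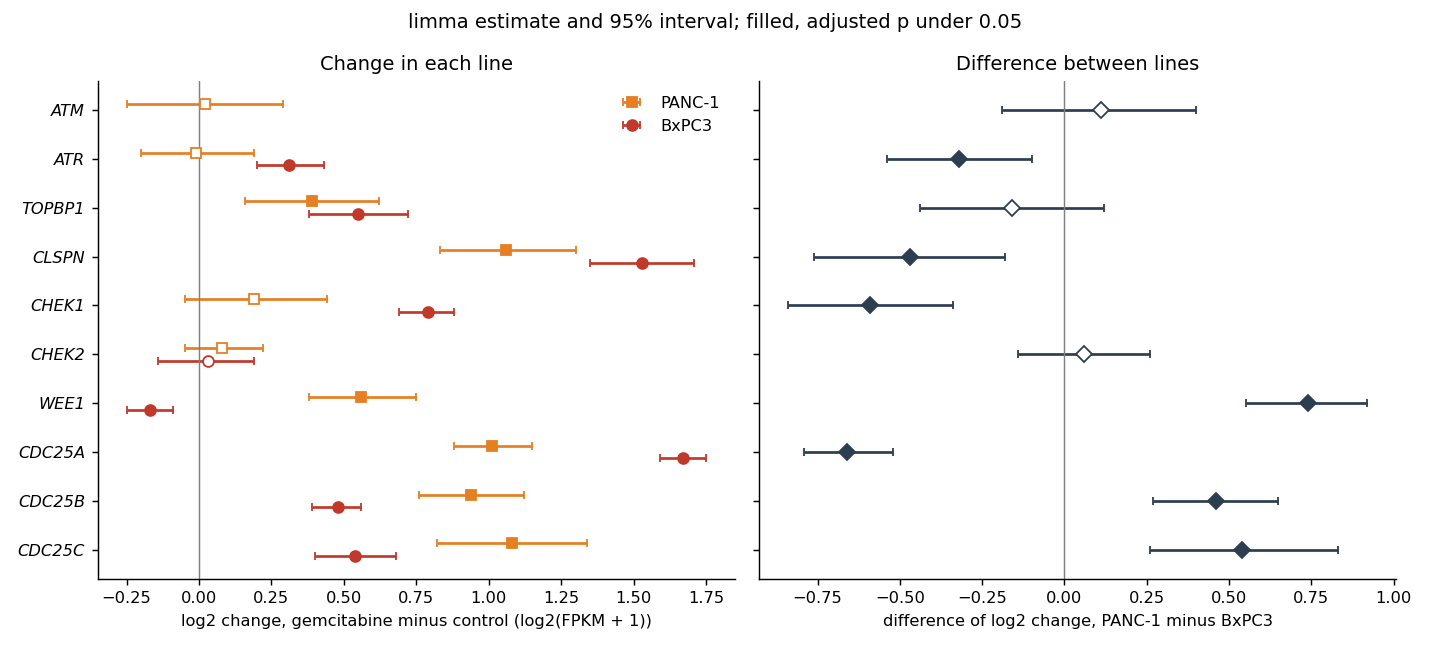
Left, the log2 change with gemcitabine (log2(FPKM + 1), horizontal axis) of each gene in PANC-1 (squares) and BxPC3 (circles), with 95% intervals, filled where the adjusted p is under 0.05. Right, the difference PANC-1 minus BxPC3 with its interval. CDC25A, CHEK1, CLSPN and ATR lie left of 0 on the right side and WEE1, CDC25B and CDC25C lie right of it, and ATM has no BxPC3 point because it was not tested there.

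PANC-1 gemcitabine replicate 1 was low in the 9 genes of lower GC content and high in the richest. Its log2 level minus the mean of the other 3 libraries was -0.506 in ATM, whose longest transcript has 39.1% GC, -0.439 in CHEK1 (41.5%), -0.436 in TOPBP1 (42.8%), -0.414 in CLSPN (44.8%) and -0.358 in CDC25C (47.6%). It was -0.312 in WEE1, the member poorest in GC at 37.9%, and -0.316 in ATR, which has less GC than CHEK1, so the deviation was not ordered by GC among the genes poor in it. It was -0.120 in CHEK2 (49.6%) and -0.071 in CDC25A (51.7%). In CDC25B, the member richest in GC at 59.3%, it was 0.318. Without it, 9 of the 10 genes passed the PANC-1 test as higher, all but ATR at 0.07 (adjusted p = 0.227), where 32.8% of all genes then passed as higher and 37% as lower. After removal of library GC trends, 7 of the 10 passed as higher.

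**Figure D4:**
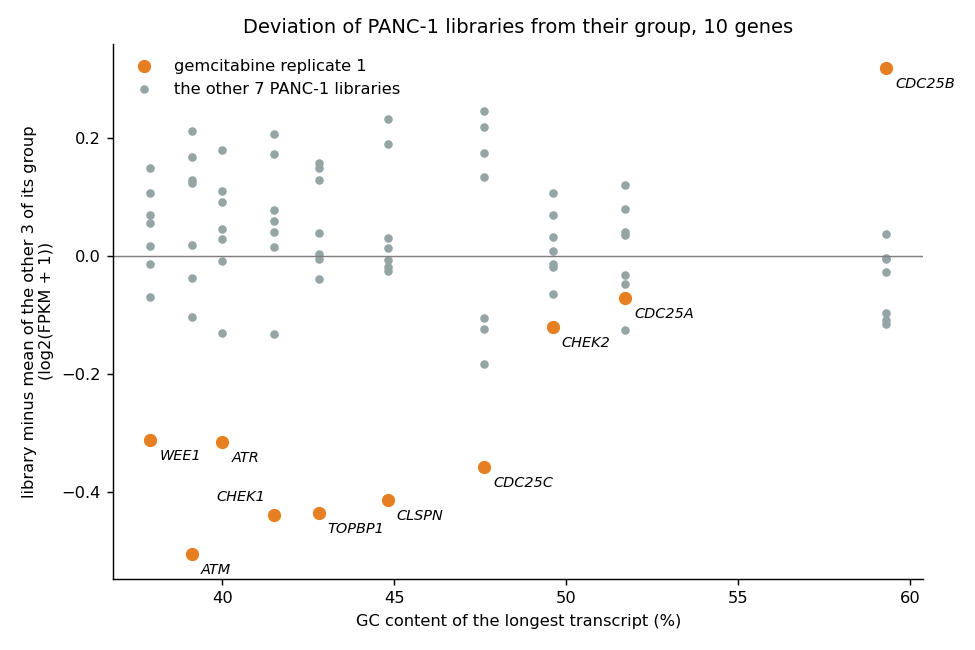
For each PANC-1 library, its log2(FPKM + 1) minus the mean of the other 3 libraries of its group (vertical axis) against the GC content of the longest transcript (percent, horizontal axis), with 1 column of points per gene. Gemcitabine replicate 1 (large points, named) lies below 0 for 9 genes, from -0.506 for ATM to -0.071 for CDC25A, and at 0.318 for CDC25B, while the other 7 libraries (small points) stay closer to 0 for most genes.

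The genes that work directly with the 10 were taken as 6 groups of 59 genes in all. Of the 56 tested in each line, 25 were higher and 2 lower in PANC-1, and 39 were higher and 7 lower in BxPC3. Their median log2 change was 0.12 in PANC-1 and 0.35 in BxPC3. Over all genes tested, 20.7% were higher and 24% lower in PANC-1, and 37.3% higher and 36.1% lower in BxPC3. These shares are also the background of the group counts below. Without PANC-1 gemcitabine replicate 1 the PANC-1 counts were 33 higher and 5 lower, where 32.8% of all genes were higher and 37% lower. The group with the widest rise was the CDK side of the G2 switch: 9 of 10 tested genes were higher in PANC-1 and 11 of 11 in BxPC3, with median log2 changes of 1.34 in PANC-1 and 1.35 in BxPC3. PLK1, the mitotic kinase that marks WEE1 for degradation, averaged 18 FPKM with gemcitabine and 2.77 FPKM in controls in PANC-1, a log2 change of 2.32 ± 0.10 (adjusted p = 7.00e-07). In BxPC3 PLK1 averaged 28.8 FPKM with gemcitabine and 8.76 FPKM in controls (1.61 ± 0.04, adjusted p = 4.55e-10). Cyclin A2 (CCNA2), a partner of both S phase and mitotic CDKs, was 5.02-fold higher in PANC-1 and 2.69-fold higher in BxPC3, with a difference of 0.68 (adjusted p = 2.45e-06). CCNB1 was 2.97-fold higher in PANC-1 and 3.01-fold higher in BxPC3.

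In the group of the ring-shaped clamp that brings TOPBP1 to forks, its loader and the single-strand binding protein RPA, 6 of 14 tested genes were higher and 1 lower in PANC-1, and 8 of 14 were higher and 1 lower in BxPC3. Without PANC-1 gemcitabine replicate 1 the PANC-1 counts were 8 higher and 2 lower. ETAA1, another activator of ATR, named after its values were seen, was the gene lower in BxPC3 (-0.12, adjusted p = 0.0297), a call lost with TPM scaling (adjusted p = 0.313), and its PANC-1 change was 0.12 (adjusted p = 0.394), or 0.23 (adjusted p = 0.001) without that library. The loader subunit RFC3 was 2.06-fold higher in PANC-1 (adjusted p = 0.0003) and 2.42-fold higher in BxPC3 (adjusted p = 1.38e-08). RFC5, another loader subunit, was 1.38-fold higher in PANC-1 and 1.33-fold higher in BxPC3. RPA3, the smallest subunit of RPA, averaged 13.6 FPKM with gemcitabine and 8.0 FPKM in controls in PANC-1, and 9.49 FPKM with gemcitabine and 9.34 FPKM in controls in BxPC3, where it did not pass (adjusted p = 0.758). That difference between lines was 0.67 ± 0.10 (adjusted p = 2.31e-05). The other RPA subunits were also named after their values were seen. In PANC-1 RPA2 was the gene lower (-0.22, adjusted p = 0.00917) and RPA1 did not pass (0.05, adjusted p = 0.449). In BxPC3 RPA1 was higher (0.21, adjusted p = 0.000395). RPA2 did not pass there (-0.09, adjusted p = 0.103), but passed as lower with the GC trend removed (-0.13, adjusted p = 0.0168). Of the 3 fork protection genes, which work beside claspin, 2 were higher in PANC-1 and all 3 in BxPC3. TIMELESS was 1.62-fold higher in PANC-1 and 1.66-fold higher in BxPC3, and WDHD1 was 1.54-fold higher in PANC-1 and 1.52-fold higher in BxPC3. The WDHD1 difference between lines was 0.00 (adjusted p = 0.993), or 0.15 (adjusted p = 0.0204) without PANC-1 gemcitabine replicate 1. TIPIN, the partner of TIMELESS, averaged 5.28 FPKM with gemcitabine and 5.38 FPKM in controls in PANC-1, and 4.16 FPKM with gemcitabine and 1.82 FPKM in controls in BxPC3. The difference for TIPIN was -0.90 ± 0.11 (adjusted p = 3.06e-06), the same sign as that of CLSPN and CHEK1.

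Among the sensors and mediators of double-strand breaks, which work with ATM, 4 of 9 tested genes were higher in PANC-1 and 5 of 8 in BxPC3, and none was lower. The mediator MDC1 was 1.49-fold higher in PANC-1 (adjusted p = 7.31e-05) and 1.41-fold higher in BxPC3 (adjusted p = 0.00023). H2AFX, the histone that ATM phosphorylates around breaks, averaged 74.9 FPKM with gemcitabine and 58.2 FPKM in controls in PANC-1 (0.33 ± 0.14, adjusted p = 0.0858), and 255 FPKM with gemcitabine and 123 FPKM in controls in BxPC3 (1.04 ± 0.07, adjusted p = 4.70e-07). In PANC-1 H2AFX passed as higher without replicate 1 (0.18, adjusted p = 0.01) and with GC trends removed (0.44, adjusted p = 2.09e-06). The ubiquitin ligase RNF168 was 1.20-fold higher in PANC-1 and 1.09-fold higher in BxPC3, a BxPC3 call that was lost with the GC trend removed (adjusted p = 0.166). NBN, a subunit of the complex that recruits ATM to breaks, was 1.34-fold higher in BxPC3, while its PANC-1 change was 0.07 (adjusted p = 0.739), or 0.23 (adjusted p = 0.000412) without replicate 1.

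The ligases, deubiquitinases and phosphatases that act on the checkpoint kinases and CDC25 proteins showed 3 of 13 genes higher and none lower in PANC-1, and 5 higher and 6 lower in BxPC3. Over all genes tested, the shares were 20.7% higher and 24% lower in PANC-1, and 37.3% higher and 36.1% lower in BxPC3. The PANC-1 counts were 5 higher and 3 lower with GC trends removed, and 4 higher and 1 lower without gemcitabine replicate 1. With values rescaled to TPM the BxPC3 counts were 6 higher and 3 lower. USP28, a deubiquitinase of claspin and CHK2, averaged 13.1 FPKM with gemcitabine and 10.3 FPKM in controls in PANC-1 (adjusted p = 0.00902), and 7.43 FPKM with gemcitabine and 11.6 FPKM in controls in BxPC3 (adjusted p = 6.44e-06). FBXW11, a subunit of the ligase that degrades CDC25A, WEE1 and claspin, was 1.22-fold higher in PANC-1 (adjusted p = 0.00884) and was 0.908 times control in BxPC3 (adjusted p = 0.0177), where the call was lost after rescaling to TPM (-0.05, adjusted p = 0.453). USP7, which stabilises claspin and CHK1, was 1.41-fold higher in PANC-1 and 1.24-fold higher in BxPC3. Thus USP28 and FBXW11, like WEE1, passed the test in opposite directions in the lines, with differences of 0.90 and 0.40.

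All 7 of the 14-3-3 genes, whose proteins hold phosphorylated CDC25 proteins in the cytoplasm, were higher in BxPC3, while in PANC-1 1 was higher, 1 was lower and 5 did not pass. Without PANC-1 gemcitabine replicate 1 the PANC-1 counts were 4 higher and 2 lower. YWHAG averaged 131 FPKM with gemcitabine and 206 FPKM in controls in PANC-1 (-0.66 ± 0.08, adjusted p = 0.000153), and 110 FPKM with gemcitabine and 81.2 FPKM in controls in BxPC3 (0.44 ± 0.05, adjusted p = 2.47e-05). YWHAQ averaged 354 FPKM with gemcitabine and 193 FPKM in controls in PANC-1, and 59.7 FPKM with gemcitabine and 39.3 FPKM in controls in BxPC3, and passed as higher in both. YWHAH was 1.76-fold and YWHAZ 1.45-fold higher in BxPC3. In PANC-1 YWHAH averaged 53.9 FPKM with gemcitabine and 52.7 FPKM in controls, and YWHAZ 106 FPKM with gemcitabine and 101 FPKM in controls (0.06, adjusted p = 0.721). Without replicate 1 YWHAZ passed as higher in PANC-1, at 0.19 (adjusted p = 0.000328). Some 14-3-3 genes have processed pseudogenes, and how reads were split between copies is not given in the sources used here.

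**Figure D5:**
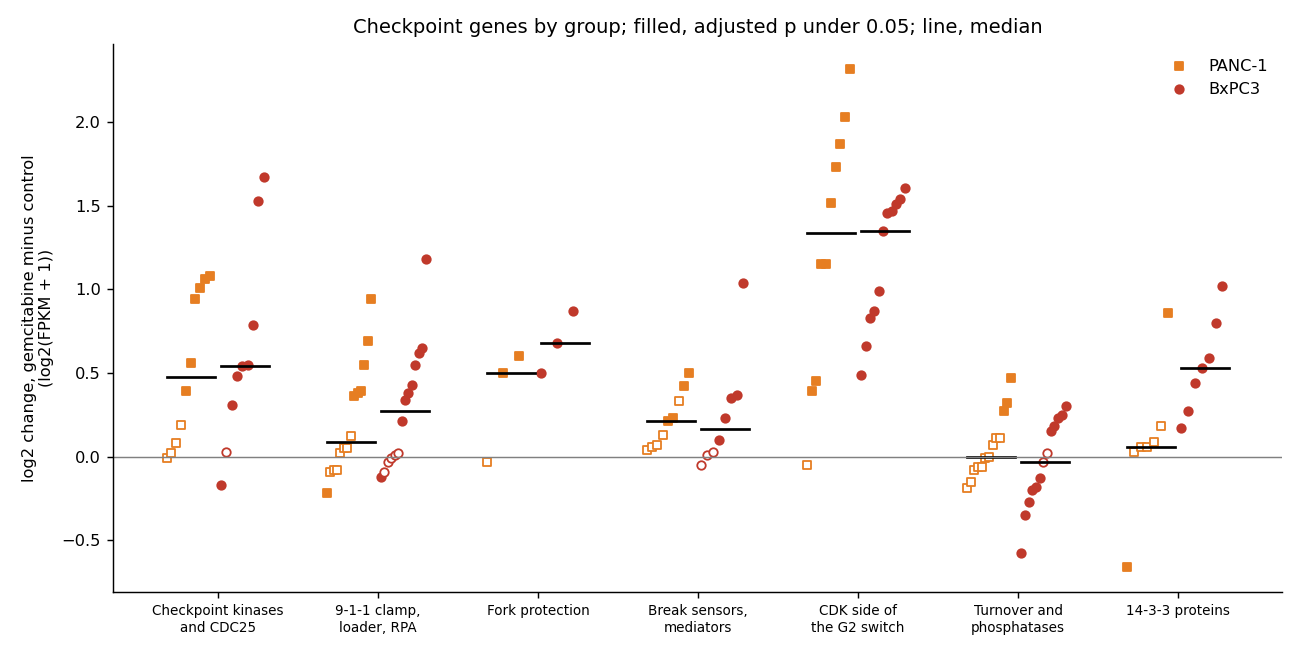
Log2 change with gemcitabine (log2(FPKM + 1), vertical axis) of each tested gene in the set of 10 and in the 6 groups around it, PANC-1 (squares) left of BxPC3 (circles), filled where the adjusted p is under 0.05, with the group median as a line. The CDK side of the G2 switch has the highest medians, 1.34 in PANC-1 and 1.35 in BxPC3, and the 14-3-3 genes spread from -0.66 to 0.86 in PANC-1 but are all above 0 in BxPC3.

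CDC25B had the highest level per length of the 10 genes in each of the 4 groups. At 123 FPKM with gemcitabine and 63.6 FPKM in controls, it lay at percentile 98.0 and 95.3 of the genes tested in PANC-1, and TOPBP1 came second in all 4 groups. In PANC-1 with gemcitabine TOPBP1, WEE1 and CHEK1 overlapped with their neighbours in that order, and from CLSPN at 6.43 FPKM to CDC25A at 3.53 FPKM each gene overlapped with the next. The overlaps among TOPBP1, WEE1 and CHEK1 came from gemcitabine replicate 1 alone, at 11.99, 11.26 and 9.57 FPKM. In the other libraries of that group TOPBP1 had 16.41 to 16.69 FPKM, WEE1 13.85 to 14.58 FPKM and CHEK1 12.7 to 13.78 FPKM. The overlap of ATM with CHEK2 also came from replicate 1 alone, with ATM at 4.26 FPKM. In PANC-1 controls CDC25A and CDC25C came last, at 1.25 and 1.19 FPKM, and overlapped. With gemcitabine in BxPC3, CDC25A ranked at position 3, with 9.89 FPKM, and overlapped with TOPBP1, whereas in BxPC3 controls it was at position 6, with 2.43 FPKM, and overlapped with ATR. ATM was last in both BxPC3 groups and at position 6 with gemcitabine and 5 in controls in PANC-1. The length used joins all exons, 23972 bases for ATM against 13147 in its longest transcript, and 4117 against 3783 for CDC25A. The order of the genes and the ratios between them depend on that length. The ratio of ATR to ATM was 0.566 to 0.690 with gemcitabine against 0.598 to 0.730 in PANC-1 controls, while in BxPC3 it was 3.29 to 4.20 with gemcitabine against 2.26 to 2.84 in controls. Levels between the lines were not tested, because each line has its own table.

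Of 9763 protein-coding genes tested in both lines, those whose pattern over the 16 libraries was most like that of CHEK1, after centring on the mean of each line, were PNPT1, BUB3 and DBF4 (Pearson r of 0.989, 0.989 and 0.988). For CDC25B they were S100A16, ENTPD6 and SPNS2 (0.996, 0.993 and 0.993). The 16 points share the treatment contrast and the GC trend of PANC-1 gemcitabine replicate 1, so these values describe the libraries. Some of the 10 genes start within 1 kb of a gene on the other strand. HSCB, beside CHEK2, averaged 5.29 FPKM with gemcitabine and 6.88 FPKM in controls in PANC-1 (adjusted p = 0.00279), while CHEK2 did not pass. NPAT, beside ATM, averaged 6.31 FPKM with gemcitabine and 5.32 FPKM in controls in PANC-1 (adjusted p = 0.154), and CENPB, beside CDC25B, 95.9 FPKM with gemcitabine and 72.4 FPKM in controls (adjusted p = 0.0809). Gemcitabine replicate 1 had 4.78 FPKM of NPAT against 6.74 to 6.86 FPKM in the others of its group, and 134.5 FPKM of CENPB against 81.4 to 84.6 FPKM. PANC-1 controls had 5.02 to 5.55 FPKM of NPAT and 67.0 to 77.2 FPKM of CENPB.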

How the data were processed

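Poly-A RNA of PANC-1 and BxPC3 cells was sequenced in 16 libraries, grouped by the sample titles. The authors deposited 1 table of FPKM values per line, with gene lengths in bases, another unit taken from the deposited tables, per the labels and the file headers. CASAVA and HISAT2 are named per the submitters' processing notes, without versions. The only build named there is mm10, of mouse, but the 58735 genes all carry human identifiers with the coordinates of GENCODE 29, so GRCh38 is used. The counter is not given in the sources used here.

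Converted to reads with the gene length and the worth of 1 read in each library, FPKM fell within 0.02 reads of whole reads for 100% of values. Depth was 22152034 to 31642808 reads with gemcitabine and 23007302 to 24913994 in controls in PANC-1, and 29975612 to 34305420 with gemcitabine and 28074125 to 37777222 in controls in BxPC3. The gene length used is that of all exons joined, so levels per length are lower than for a single transcript, by amounts that differ between genes. Replicates differed by more than counting noise (lowest chi-square 2.054 per degree of freedom).

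For each line, limma 3.58.1 (R 4.3.3; empirical Bayes with robust and trend options) was run on log2(FPKM + 1) of genes that reached 1 FPKM in 4 or more of its libraries. P-values were adjusted over all tested genes by Benjamini-Hochberg, with a threshold of 0.05. The difference was the interaction over 16 libraries. ATM in BxPC3 was tested with scipy 1.17.1. Tables were read with pandas 2.3.3 and figures drawn with matplotlib 3.10.9. The procedure was tested on simulated data that held no trend over GC content and no outlying library. That test therefore does not cover a library like PANC-1 gemcitabine replicate 1.

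Recalculations used TPM or median-ratio scaling, no filter, 0.1 as pseudocount, plain limma without those options, protein-coding genes alone, limma-voom on the recovered reads, the replicate number as a block and each library left out. Removal of each library's GC trend (spline with 4 degrees of freedom) was added after seeing the data. Named genes were all 10 members, per group and line the 2 tested genes with the smallest p, any gene called in opposite directions, and the 3 genes most like CHEK1 and CDC25B. The members and lists were chosen with earlier results of these data known. ETAA1, RPA1 and RPA2 were named besides, after their values were seen.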

Additional observations from a re-analysis of the deposited data

Results flagged for a closer look

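In 4 of 40 combinations of gene and group, 1 library lay far from the other 3, where chance gives about 1 in 20, and 3 of the 4 were PANC-1 gemcitabine replicate 1. That library had 4.26 FPKM of ATM against 6.31 to 6.64 FPKM in the others, 12.0 FPKM of TOPBP1 against 16.4 to 16.7 FPKM, and 145 FPKM of CDC25B against 116 to 117 FPKM. BxPC3 control replicate 2 had 6.04 FPKM of TOPBP1 against 7.35 to 7.46 FPKM in the other controls.

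The effect of gemcitabine differed between the lines for 7 genes by the limma interaction, with values as PANC-1 minus BxPC3 on the log2 scale. The difference was 0.74 for WEE1, 0.54 for CDC25C and 0.46 for CDC25B. It was -0.66 for CDC25A, -0.59 for CHEK1, -0.47 for CLSPN and -0.32 for ATR. Each of the 7 kept its direction and its side of the threshold under all 25 alternatives run for it.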

How the results depend on the processing

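Of 573 recalculated single-gene results of the 10 genes, 567 kept their side of the threshold and 6 did not. No called result changed direction. Some small changes that passed in neither fit changed sign, such as CHEK2 in BxPC3 (0.03, and -0.01 with the GC trend removed). WEE1 in BxPC3 was no longer called with TPM scaling (-0.12, adjusted p = 0.0774), so the count of members lower in BxPC3 was 0. ATM, CHEK1 and CHEK2 in PANC-1 and the ATM difference were called without PANC-1 gemcitabine replicate 1, and CHEK1 also with the GC trend removed, at the values given above. Leaving out each library in turn gave 6 to 9 members higher in PANC-1, 2189 to 4102 genes higher and 2452 to 4626 lower there, and 3 to 4 members with a positive difference. The highest of each came without PANC-1 gemcitabine replicate 1. With the GC trend removed, 3652 PANC-1 genes were higher and 4603 lower, against 2595 and 3007 as reported. Same-numbered libraries deviated with correlations of -0.376 to 0.189, and libraries of different numbers with -0.307 to 0.445. No pairing by replicate number was seen, though these correlations cannot exclude it. With the replicate number as a block, 2175 genes were higher and 2464 lower in PANC-1, 4347 higher and 4206 lower in BxPC3, and 3256 higher and 3352 lower for the difference, and no call among the 10 genes changed. On the recovered reads, limma-voom called 2623 genes higher and 3070 lower in PANC-1 and 4595 higher and 4442 lower in BxPC3. Depth limits CDC25C and CDC25A most in PANC-1 controls, at 82 to 118 and 112 to 143 reads per library, counting error only.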
